A study of Rattus norvegicus with 15 samples.

Results

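A set of 9 membrane receptors, through which neutrophils, monocytes and macrophages sense danger and chemoattractants, was followed in rat lung: Fpr1, Fpr2, Trem1, C5ar1, Ptafr, Cd177, Clec4d, Clec4e and Clec7a. They were chosen by gene symbol, and 9 of 9 symbols were found among the 22250 genes of the table. The 15 lung libraries came from wild-type rats and fell into 3 groups of 5. Control rats were normal animals. COPD rats modelled chronic obstructive pulmonary disease and had been given lipopolysaccharide (LPS, the outer-membrane endotoxin of Gram-negative bacteria) and smoke by the trachea. WDD rats had the same LPS and smoke exposure and were also given WDD, Wendan Decoction, a herbal formula of Chinese medicine, into the stomach. The sources used here give no strain, age, sex, dose or timing. Nor do the labels state that different libraries are different rats, and a p-value therefore reflects only how far these libraries scatter. Levels are FPKM, fragments scaled to transcript length and library size, as deposited, and are given as mean ± SD of 5 libraries unless each library is listed.

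The receptors belong to several families. Formyl peptide receptors (Fpr1, Fpr2), the complement C5a receptor C5ar1 and the platelet-activating factor receptor Ptafr are G protein-coupled receptors that guide phagocytes along gradients of bacterial peptides, complement fragments and lipid mediators. Trem1 signals through the adaptor DAP12 (Tyrobp) and amplifies inflammatory responses, and Cd177 is a surface glycoprotein of neutrophils that binds Pecam1 on endothelium. Clec4d (MCL), Clec4e (Mincle) and Clec7a (Dectin-1) are C-type lectin receptors that recognise microbial glycolipids or fungal beta-glucan and signal through the kinase Syk and the adaptor Card9. In lung, these receptors are carried mainly by neutrophils, monocytes and macrophages.

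The 3 lectin genes lie on rat chromosome 4, Clec4d and Clec4e as neighbours in the RefSeq gene order and Clec7a between Clec1a and Olr1. Since Clec4d and Clec4e rose in COPD lungs and Clec7a did not pass, the 250 bases before their RefSeq start are shown, on the strand of the gene and with matches to the core of the PU.1 motif (GAGGAA, or TTCCTC for the other strand) in capitals. PU.1 is a transcription factor of myeloid cells. The coordinates are of build GRCr8, the Clec4e and Clec7a windows are on the minus strand and the Clec4d window on the plus strand.
Clec4e, chr4:158298468-158298717: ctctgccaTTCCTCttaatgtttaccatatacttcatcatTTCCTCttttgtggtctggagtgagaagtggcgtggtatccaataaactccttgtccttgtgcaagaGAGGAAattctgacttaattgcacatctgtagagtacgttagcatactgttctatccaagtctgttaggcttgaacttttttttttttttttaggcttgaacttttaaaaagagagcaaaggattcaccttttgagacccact
Clec4d, chr4:158275093-158275342: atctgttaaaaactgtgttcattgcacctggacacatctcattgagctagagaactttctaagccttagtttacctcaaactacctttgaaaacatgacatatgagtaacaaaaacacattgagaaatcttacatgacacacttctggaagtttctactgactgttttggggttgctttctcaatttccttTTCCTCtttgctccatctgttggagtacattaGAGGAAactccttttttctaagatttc
Clec7a, chr4:164599828-164600077: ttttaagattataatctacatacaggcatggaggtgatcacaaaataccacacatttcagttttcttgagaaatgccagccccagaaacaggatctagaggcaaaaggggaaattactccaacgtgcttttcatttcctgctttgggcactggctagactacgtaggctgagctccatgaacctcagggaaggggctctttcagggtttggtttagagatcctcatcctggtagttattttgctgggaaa

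The Clec4e window held 3 matches to the PU.1 letters, the Clec4d window held 2 and the Clec7a window held 0. The letters were also absent from the windows of Trem1 and Cd177, which were higher in COPD lungs. Of the 9 receptors, 8 were matched in the promoter table, and 5 of these 8 windows held the letters on either strand, against 23.3% of 33469 windows of the same length. These 5 were Fpr1, Fpr2, Ptafr, Clec4d and Clec4e. The windows counted for Fpr1, Ptafr and Trem1 start inside the gene's RefSeq span. The letters TTGCNNAA, a C/EBP motif, were in 3 of the 8 (Fpr2, Ptafr and Clec4e), against 9.22% of all windows. The AP-1 letters TGANTCA were in 0 of the 8, against 6.34% of all windows. Matches to different motifs did not overlap in any of these windows. These matches describe the letters only and were not tested against binding.

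Whole libraries differed between the groups before any receptor was considered. The share of mitochondrially encoded genes in the FPKM sum was 8.11% ± 1.94 for control, 44.9% ± 12.4 for COPD and 21.8% ± 2.90 for WDD libraries. The median FPKM of the 13172 genes tested was 12.7 ± 0.342, 6.42 ± 1.02 and 9.99 ± 0.296 in that order, and long housekeeping transcripts lay further below short ones in both exposed groups (log2 difference -1.62 ± 0.435 in control, -3.68 ± 0.499 in COPD and -3.33 ± 0.361 in WDD lungs). Estimated from the steps between low FPKM values, depth relative to control 2 lay between 0.871 and 1.09. COPD 5 stood apart from the other COPD libraries: across all genes tested, the SD of its log2 differences from them was 0.902 to 0.974, against 0.402 to 0.56 among those 4. Neutrophil markers rose and fell with the receptors. In COPD against control lungs 10 of the 11 tested were higher, where 8.23% of all genes were. In WDD against COPD lungs 10 of 11 were lower, where 6.63% of all genes were. Elane reached 1 FPKM only in the COPD libraries, so it was tested through the group in which it was high. The FPKM of the 13 listed summed to 177 to 263 in control, 14720 to 50370 in COPD and 126 to 704 in WDD lungs. Most of the COPD sum, with a mean of 28210, came from S100a8 and S100a9 (means of 8453 and 15340 FPKM). Lcn2 held 128 FPKM of the mean control sum of 222. Of the 13, Ltf was listed at 0 in the 5 COPD libraries. In lung tissue, more cells that carry a receptor and more receptor RNA per cell cannot be told apart.

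Against this background, 7 of the 8 receptors that could be tested were higher in COPD than in control lungs by limma (adjusted p under 0.05), where 8.23% of all genes tested were higher and 66.4% were lower. These 7, all but Clec7a, were lower in WDD than in COPD lungs, where 57.1% of all genes were higher and 6.63% lower. No receptor of the 8 differed between WDD and control lungs, where 6.35% of all genes were higher and 31.0% lower, and none did at an unadjusted p under 0.05. The median log2 fold change of the 8 receptors was 2.57, -2.51 and -0.12 in the 3 comparisons, and that of all genes tested was -0.81, 0.54 and -0.23. COPD against WDD and COPD against control share the COPD libraries, so the 2 comparisons are not independent. The filter asked for 1 FPKM in at least 5 libraries, which Fpr2 reached in 4 and so was fitted without the filter. Fpr1 reached it in 6 libraries and Cd177 in 7, the 5 COPD libraries among them, so these genes passed through the group in which they were high and the counts carry no support of their own.

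**Figure D1:**
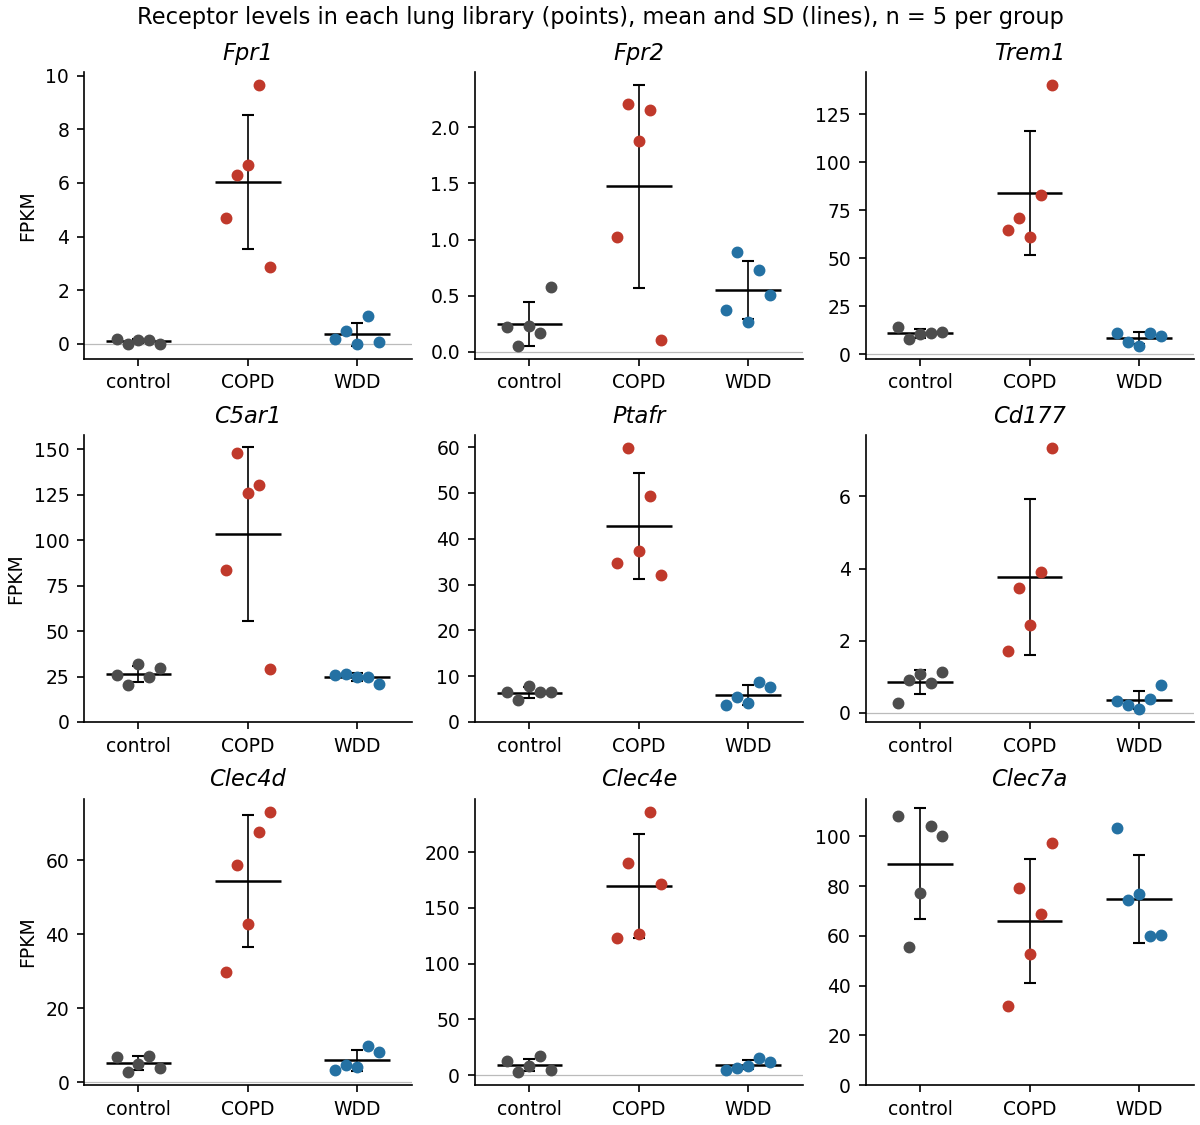
FPKM (vertical axes, one scale per gene) of the 9 receptors in each of the 15 lung libraries, with the group mean and SD as lines. The COPD libraries lie above the control and WDD libraries for 6 receptors, C5ar1 and Fpr2 each have 1 low COPD library, and the Clec7a groups overlap.

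Among the chemoattractant receptors, Ptafr, the receptor for platelet-activating factor, rose in COPD lungs. It stood at 6.48, 4.71, 7.93, 6.47 and 6.60 FPKM in control libraries 1 to 5. The COPD libraries held 34.8, 59.7, 37.4, 49.4 and 32.2 FPKM, and the WDD libraries 3.81, 5.47, 4.12, 8.64 and 7.71. All COPD libraries lay above all others, while the control and WDD libraries overlapped. By limma the log2 fold change of FPKM + 1 was 2.53 (SE 0.22, adjusted p = 4.45e-08) for COPD against control and -2.67 (SE 0.22, adjusted p = 1.42e-07) for WDD against COPD.

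C5ar1, which binds the complement fragment C5a, had the highest mean level of the G protein-coupled members in each group. Control libraries held 25.7, 20.3, 31.8, 24.9 and 29.5 FPKM. COPD libraries 1 to 4 held 83.4, 148, 126 and 130, whereas COPD 5 held 28.9, inside the control range. The WDD libraries lay closely together at 25.6, 26.4, 24.8, 24.8 and 20.9 FPKM. The rise in COPD lungs was 1.75 log2 units (SE 0.32, limma adjusted p = 0.00012) and the difference of WDD from COPD lungs was -1.84 (SE 0.32, limma adjusted p = 0.000148). Without COPD 5 these values were 2.15 and -2.24.

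The formyl peptide receptors were low throughout. Fpr1 was listed at 0 in 2 control libraries and 1 WDD library and reached at most 0.195 FPKM in control and 1.05 FPKM (WDD 4) in WDD lungs, against 4.68, 6.30, 6.67, 9.64 and 2.88 in the COPD libraries. Its groups did not overlap between COPD and the others, and the log2 fold changes were 2.61 (SE 0.24, limma adjusted p = 8.48e-08) for COPD against control and -2.35 (SE 0.24, limma adjusted p = 1.09e-06) for WDD against COPD. At these levels the size depends on the pseudocount: with 0.1 in place of 1 they were 5.03 and -4.17. Fpr2, the receptor that also binds annexin A1 and serum amyloid A, held 0.221, 0.0555, 0.232, 0.167 and 0.577 FPKM in control lungs. It held 1.02, 2.21, 1.88, 2.15 and 0.102 in COPD lungs and 0.371, 0.889, 0.263, 0.733 and 0.504 in WDD lungs. COPD 1 to 4 lay above every other library and COPD 5 was at the level of control lungs. Fitted without the filter, where 6.23% of 18300 genes were higher, Fpr2 rose in COPD lungs by 0.89 (SE 0.24, limma adjusted p = 0.00491). The difference of -0.59 between WDD and COPD lungs did not pass (limma adjusted p = 0.0603, where 5.01% of all genes were lower) and passed without COPD 5 (-0.85, limma adjusted p = 0.00057) and with median-of-ratios scaling (-0.89, limma adjusted p = 0.0161). RefSeq lists 5 Fpr2 pseudogenes, and how shared reads were assigned is not stated.

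Trem1, the amplifier of myeloid inflammatory signals, was measured at 14.1, 7.67, 10.2, 10.9 and 11.5 FPKM in control lungs. The COPD libraries held 64.7, 70.7, 61.1, 83.0 and 140.0 FPKM, the highest in COPD 5. The WDD libraries held 10.8, 6.14, 4.28, 10.99 and 9.36 FPKM, within or below the control range. The COPD libraries did not overlap with either group. Trem1 rose by 2.79 (SE 0.26, limma adjusted p = 8.46e-08) in COPD against control and differed by -3.19 (SE 0.26, limma adjusted p = 1.27e-07) in WDD against COPD lungs. Cd177, the neutrophil glycoprotein, followed at a lower level: 0.289, 0.900, 1.09, 0.842 and 1.15 FPKM in control, 1.73, 3.46, 2.42, 3.90 and 7.33 in COPD, and 0.332, 0.219, 0.110, 0.383 and 0.762 in WDD lungs. The COPD libraries again lay above all others, and WDD libraries overlapped with control libraries, 2 of them below every control library. The log2 fold changes of Cd177 were 1.28 (SE 0.25, limma adjusted p = 0.000184) and -1.72 (SE 0.25, limma adjusted p = 2.57e-05). Its difference between WDD and control lungs was -0.44 (limma adjusted p = 0.173), and it passed with library weights (-0.52, limma adjusted p = 0.00418). Cd177 neighbours the related gene Cd177l2, and reads could be split between such copies.

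Clec4e (Mincle), the lectin receptor for mycobacterial cord factor and for a protein released from dying cells, had the largest change of the 9 on this scale. Control libraries held 12.7, 2.81, 8.73, 17.1 and 4.73 FPKM, a wide spread. COPD libraries held 123, 190.2, 127, 236 and 171 FPKM, and WDD libraries 4.58, 6.94, 8.37, 15.1 and 11.9. Every COPD library lay far above every other library, and the WDD libraries lay inside the control range. By limma, Clec4e rose by 4.23 (SE 0.37, adjusted p = 6.16e-08) in COPD lungs and was lower by a log2 difference of -4.09 (SE 0.37, adjusted p = 4.08e-07) in WDD than in COPD lungs. With a pseudocount of 0.1 its rise was 4.42, below the 5.03 of Fpr1. Clec4d (MCL), its neighbour and partner in the same receptor complex, held 6.75, 2.73, 4.88, 7.19 and 3.86 FPKM in control lungs. It held 29.9, 58.7, 42.6, 67.7 and 73.2 in COPD and 3.23, 4.67, 4.07, 9.84 and 8.13 in WDD lungs. The COPD libraries were separate from both other groups, and WDD 4 and WDD 5 were the highest WDD libraries for both lectins and for Ptafr. Clec4d changed by 3.18 (SE 0.30, limma adjusted p = 1.19e-07) and -3.01 (SE 0.30, limma adjusted p = 9.26e-07).

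Clec7a (Dectin-1), the receptor for fungal beta-glucan, was not shown to change. It held 108, 55.5, 77.1, 104 and 100.1 FPKM in control, 32.0, 79.2, 52.9, 68.7 and 97.2 in COPD, and 103, 74.4, 76.7, 59.8 and 60.3 in WDD lungs. The 3 groups overlapped, with COPD 1 the lowest library and COPD 5 near the highest control libraries. The log2 differences were -0.48 (SE 0.26, limma adjusted p = 0.111) for COPD against control and 0.25 (SE 0.26, limma adjusted p = 0.425) for WDD against COPD, and neither passed. The first passed without control 2 (-0.64, limma adjusted p = 0.0401), without COPD 5 (-0.64, limma adjusted p = 0.0288) and with library weights (-0.55, limma adjusted p = 0.0334), and turned to 0.45 (limma adjusted p = 0.136) with median-of-ratios scaling, so no direction is given for Clec7a.

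**Figure D2:**
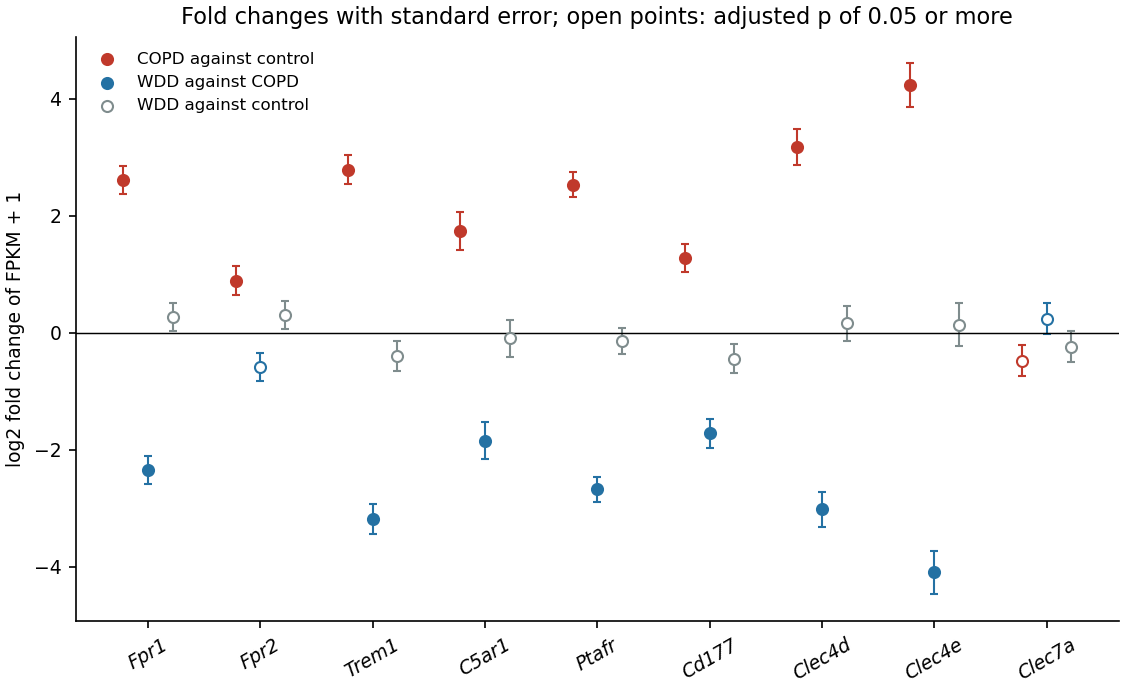
Log2 fold change of FPKM + 1 (vertical axis) with its standard error for each receptor in the 3 comparisons, and open points where the adjusted p was 0.05 or more. Clec4e reaches 4.23 and -4.09, Clec7a is open in every comparison, and the WDD against control points are all open, between -0.44 and 0.31.

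Libraries did not overlap at all for 6 of the 9 receptors between COPD and control lungs (all but Fpr2, C5ar1 and Clec7a), with COPD above, where 3.99% of all genes tested did so in that direction. Between WDD and COPD lungs 7 of the 9 did not overlap, with WDD below, where 4.43% of all genes did so. Between WDD and control lungs the groups overlapped for the 9 receptors, where WDD lay apart above control for 6.76% and below for 31.4% of all genes. The scale of the table matters for the size of the changes: median-of-ratios scaling moved the median of all genes in COPD against control lungs from -0.81 to -0.05, and with it Clec4e to 5.11, Clec4d to 4.02, Trem1 to 3.68, Ptafr to 3.39, Fpr1 to 3.08, C5ar1 to 2.66 and Cd177 to 1.86. The 7 receptors called kept their direction and their call in both comparisons with COPD lungs under each alternative in which they were tested, which for Fpr1 and Cd177 leaves out the filter at a mean of 5 FPKM.

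FPKM is scaled to length, and on that scale the leading genes in COPD lungs differed from those in control and WDD lungs. Long housekeeping transcripts lay further below short ones in both exposed groups (log2 difference -1.62 in control, -3.68 in COPD and -3.33 in WDD lungs). Genes of different length are therefore compared with that limit, and the part of length in the receptor order was not tested. In control lungs Clec7a was highest (89.0 FPKM ± 22.3), followed by C5ar1 (26.4 ± 4.43), Trem1 (10.9 ± 2.32), Clec4e (9.20 ± 5.80), Ptafr (6.44 ± 1.14) and Clec4d (5.08 ± 1.89), with Cd177, Fpr2 and Fpr1 below 1 FPKM. Within single libraries Clec7a lay above C5ar1 in 5 of 5 control libraries, whereas Clec4e lay above Ptafr in only 3 of 5 and Ptafr above Clec4d in 3 of 5, so these neighbours were not separated. In COPD lungs Clec4e led (169 FPKM ± 47.0), above C5ar1 (103 ± 47.7) in 5 of 5 libraries, and Clec7a stood at the fourth place (66.0 ± 24.9), below Trem1 (83.9 ± 32.4) in 4 of 5. WDD lungs had Clec7a (74.9 ± 17.7), C5ar1 (24.5 ± 2.13), Clec4e (9.36 ± 4.14) and Trem1 (8.32 ± 2.98) at the top, and Clec4d (5.99 ± 2.85) and Ptafr (5.95 ± 2.15) were not separated, with Clec4d higher in 2 of 5 libraries. Of the summed FPKM of the 9 receptors, 148 ± 32.6 in control, 531 ± 114 in COPD and 130.3 ± 13.01 in WDD lungs, Clec7a made up 59.8%, 12.2% and 57.1%. The share of Clec4e was 5.86%, 31.7% and 7.35%.

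The ratio of lectins within a library moved in the same way. These pairs were chosen for a test after their values were seen, so their p-values carry no support of their own. Clec4e exceeded Clec4d by a log2 difference of 0.59 ± 0.45 in control, 1.65 ± 0.29 in COPD and 0.57 ± 0.19 in WDD lungs. The difference of group means was 1.06 for COPD minus control and -1.08 for WDD minus COPD (exact permutation p = 0.00794 each, two-sided, the smallest that 5 against 5 allows, adjusted p = 0.0119 over 6 tests). Clec4e lay below Clec7a by -3.32 ± 0.67 in control and -2.94 ± 0.90 in WDD lungs and above it by 1.40 ± 0.45 in COPD lungs. These pairs differed between COPD and control lungs by 4.71 (exact permutation p = 0.00794, adjusted p = 0.0119), and between WDD and control lungs by 0.37 (exact permutation p = 0.484, adjusted p = 0.581). Scaling of a whole library leaves such a ratio nearly unchanged at these levels. A shift that depends on transcript length, as seen between long and short housekeeping transcripts, need not cancel in it. Its part in these ratios was not tested.

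COPD 5 held a different mix of the receptors than COPD 1 to 4. It was the lowest COPD library for Fpr1, Fpr2, C5ar1 and Ptafr, and the highest for Trem1, Cd177, Clec4d and Clec7a. On the log2(FPKM + 1) scale C5ar1 lay -1.60 and Fpr2 -1.06 from the COPD mean there, and Cd177 0.91 and Trem1 0.80 above it. The same library held 268 FPKM of Tyrobp, the adaptor of Trem1, against 651 to 1116 in the other COPD libraries, 4.78 of Syk against 23.4 to 38.0, and 2.29 of Card9 against 8.50 to 17.8. The neutrophil granule gene Ngp was at 349 FPKM in COPD 5 and at 0.427 FPKM or less in the other 4, and Camp, a granule peptide precursor, at 280.0 against 19.7 to 36.8. Its part in the results was not tested beyond leaving it out: the 7 receptors called in COPD against control lungs remained called without it.

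**Figure D3:**
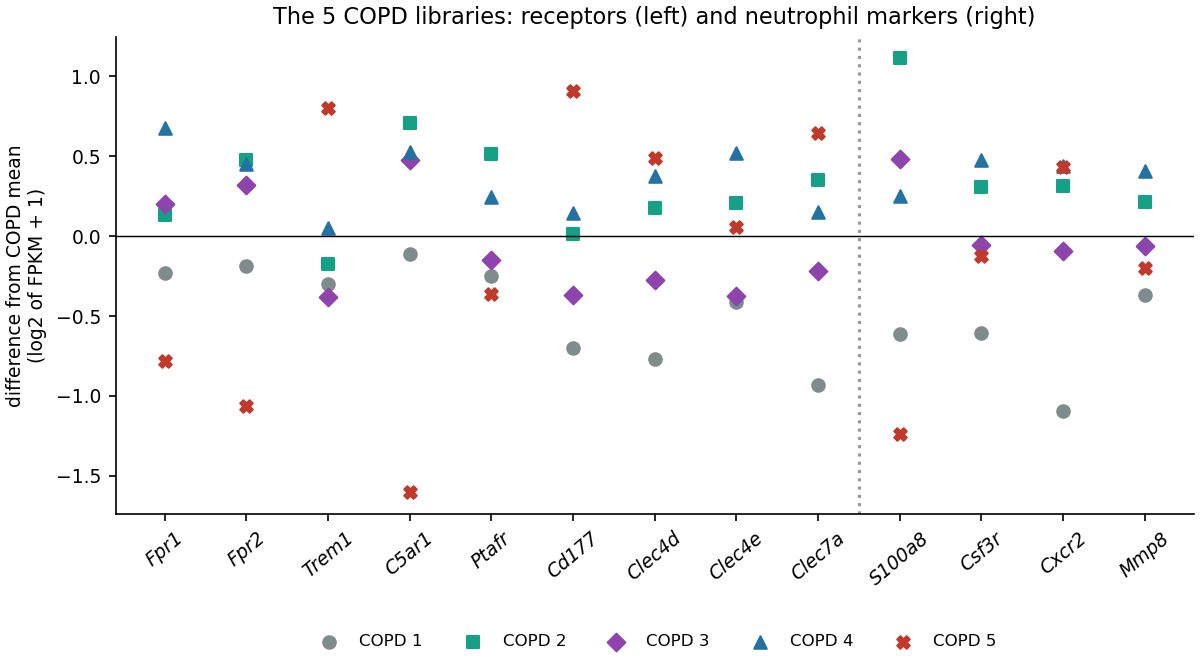
Difference from the mean of the COPD group (vertical axis, log2 of FPKM + 1) for each of the 5 COPD libraries, with receptors left of the dotted line and 4 neutrophil markers right of it. COPD 5 is lowest for C5ar1 (-1.60) and Fpr2 (-1.06) and highest for Cd177 (0.91) and Trem1 (0.80).

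Counts for the lists of related genes are read against all genes tested: 8.23% higher and 66.4% lower in COPD against control lungs (30.2% and 32.3% with median-of-ratios scaling), and 57.1% higher and 6.63% lower in WDD against COPD lungs (23.3% and 21.4%). Of 20 relatives of the receptors tested, 5 were higher and 9 lower in COPD than in control lungs by limma (8 and 4 with median-of-ratios scaling). In WDD against COPD lungs 7 were higher and 5 lower (4 and 6). The median change of the relatives was -0.32 in COPD against control lungs, beside -0.81 for all genes. Ltb4r, the leukotriene B4 receptor of neutrophils, rose from 0.558 ± 0.338 to 47.3 FPKM ± 18.7 (log2 fold change 4.91, SE 0.21, limma adjusted p = 2.19e-10), and WDD lungs held 0.758 ± 0.110. Clec4b2, the coding neighbour of Clec4d, rose from 0.191 ± 0.129 to 37.8 FPKM ± 15.4 (4.90, SE 0.29, limma adjusted p = 2.32e-09) and Trem3, the neighbour of Trem1, from 7.57 ± 2.08 to 92.1 ± 17.9 (3.45, SE 0.19, limma adjusted p = 1.50e-09). In WDD lungs Clec4b2 stood at 0.590 ± 0.486 and Trem3 at 7.67 FPKM ± 1.84, and both were lower than in COPD lungs (limma adjusted p = 1.27e-08 and 3.40e-09). Ltb4r and Clec4b2 passed the filter on low values only through the COPD libraries, in which they were high, so their tests carry no support beyond the values.

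Among the relatives that fell was C5ar2, the neighbour of C5ar1 and a second receptor for C5a that does not couple to G proteins. Its level was 15.6 ± 4.77 FPKM in control, 2.65 ± 0.274 in COPD and 3.71 ± 1.64 in WDD lungs, so that it was lower in WDD than in control lungs too (log2 fold change -1.84, SE 0.23, limma adjusted p = 4.92e-05). In COPD against control lungs C5ar2 fell by 2.14 (SE 0.23, limma adjusted p = 5.21e-07), where C5ar1 rose by 1.75. Clec9a, a lectin of cross-presenting dendritic cells, fell from 18.7 ± 2.99 to 3.60 FPKM ± 1.40 (-2.15, SE 0.20, limma adjusted p = 1.09e-07) and stood at 12.2 ± 1.78 in WDD lungs. Fpr3, next to Fpr2 in gene order, fell by 1.33 (SE 0.36, limma adjusted p = 0.00292), a call lost with median-of-ratios scaling (adjusted p = 0.0799). Clec5a, a DAP12-coupled lectin (1.97, SE 0.41, limma adjusted p = 0.000361), and Cd14, the LPS co-receptor (1.17, SE 0.31, limma adjusted p = 0.00277), rose in COPD lungs. For both, the lowest COPD library lay inside the control range. It held 1.858 FPKM of Clec5a against 1.343 to 2.593 in control lungs, and for Cd14 24.0 against 23.75 to 36.29.

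Ligands of the receptors and enzymes that make or degrade them moved both ways. Of 14 tested, 6 were higher and 7 lower in COPD than in control lungs by limma (7 and 4 with median-of-ratios scaling), where 8.23% and 66.4% of all genes were. In WDD against COPD lungs 7 were higher, a share near the 57.1% of all genes, and 6 lower, against 6.63% (3 and 7 with median-of-ratios scaling). Anxa1, the annexin ligand of Fpr2, rose from 347 ± 60.01 to 795 FPKM ± 170.2 (1.18, SE 0.17, limma adjusted p = 1.28e-05) and stood at 402 ± 42.4 in WDD lungs. Pglyrp1, a peptidoglycan recognition protein and ligand of Trem1, rose from 6.52 ± 1.66 to 51.7 ± 18.6 FPKM (2.75, SE 0.27, limma adjusted p = 1.88e-07), and WDD lungs held 5.11 ± 1.75. C3, the complement component upstream of C5, rose from 51.4 ± 14.7 to 178 ± 60.8 FPKM (1.76, SE 0.25, limma adjusted p = 9.34e-06) and was at 35.1 ± 5.23 in WDD lungs. C5, the precursor of the C5ar1 ligand C5a, fell from 11.9 ± 2.40 to 2.81 FPKM ± 2.77 (-2.13, SE 0.57, limma adjusted p = 0.0027), a call lost with quantile normalisation (-1.23, adjusted p = 0.0775). The enzymes of platelet-activating factor, the ligand of Ptafr, split: Lpcat2, which makes it in inflammatory cells, rose by 1.09 (SE 0.22, limma adjusted p = 0.00028), and Pla2g7, which degrades it in plasma, rose by 3.41 (SE 0.51, limma adjusted p = 1.43e-05). Lpcat1, the enzyme of alveolar type II cells, fell by 2.19 (SE 0.17, limma adjusted p = 1.95e-08). Cpn1, a carboxypeptidase that inactivates C5a, fell by 2.43 (SE 0.16, limma adjusted p = 4.69e-09). Anxa1, Pglyrp1, C3, Lpcat2, Pla2g7, Lpcat1 and Cpn1 each differed in the opposite direction between WDD and COPD lungs and passed.

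The pathway behind Trem1 and the lectins, from ITAM adaptors through Syk to Card9, had 8 of 19 tested genes higher and 3 lower in COPD than in control lungs by limma, with a median of 0.40, where 8.23% of all genes were higher and 66.4% lower (15 and 0 with median-of-ratios scaling, against 30.2% and 32.3%). In WDD against COPD lungs 3 were higher and 9 lower, with a median of -0.44, where 57.1% and 6.63% of all genes were (1 and 15, against 23.3% and 21.4%). Both adaptors rose: Tyrobp, the partner of Trem1, from 136 ± 20.9 to 760 FPKM ± 322 (2.34, SE 0.28, limma adjusted p = 1.40e-06), and Fcer1g, the Fc receptor gamma chain that carries Clec4e signals, from 253 ± 37.2 to a mean of 1500.0 ± 489 (2.51, SE 0.20, limma adjusted p = 2.58e-08). WDD lungs held 196 ± 8.94 FPKM of Tyrobp and 349 ± 15.5 of Fcer1g, lower than COPD lungs by limma (adjusted p = 5.34e-05 and 9.27e-07). The Src-family kinases Fgr (2.17, SE 0.27, adjusted p = 2.00e-06) and Lyn (0.83, SE 0.14, adjusted p = 5.03e-05) rose by limma. Src itself went the other way, from 25.9 ± 3.03 FPKM in control to 11.5 ± 2.70 in COPD lungs, without overlap. Syk (0.52, limma adjusted p = 0.218) and Card9 (0.31, limma adjusted p = 0.431) did not pass with COPD 5 in the fit. Without it Syk rose by 1.01 (limma adjusted p = 1.07e-05) and Card9 by 0.75 (limma adjusted p = 0.00167), and both also passed with library weights, median-of-ratios scaling and quantile normalisation.

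Behind the G protein-coupled members, 3 of 21 signalling genes were higher and 6 lower in COPD than in control lungs by limma, with a median of -0.09, where 8.23% of all genes were higher and 66.4% lower. In WDD against COPD lungs 2 were higher and 3 lower, with a median of -0.20, where 57.1% and 6.63% of all genes were. Median-of-ratios scaling changed these counts to 13 higher and 1 lower (30.2% and 32.3% of all genes), and to 0 higher and 13 lower (23.3% and 21.4%). Rac2, the small GTPase of the phagocyte oxidase and of migration, rose from 112 ± 8.20 to 445 FPKM ± 66.7 (1.97, SE 0.12, limma adjusted p = 2.97e-09) and stood at 103 ± 5.28 in WDD lungs. Pik3r5, a regulatory subunit of PI3-kinase gamma, rose by 0.80 (SE 0.18, limma adjusted p = 0.000773). Its catalytic subunit Pik3cg fell by 1.04 (SE 0.18, limma adjusted p = 7.61e-05), a call lost with median-of-ratios scaling (-0.28, adjusted p = 0.151) and a direction lost with quantile normalisation (0.005). Grk3, a kinase that desensitises G protein-coupled receptors, fell by 1.18 (SE 0.18, limma adjusted p = 1.77e-05) and Elmo1, a regulator of Rac, by 1.36 (SE 0.22, limma adjusted p = 3.97e-05). Both calls were lost with quantile normalisation (adjusted p = 0.32 and 0.0812), and that of Elmo1 with median-of-ratios scaling too (adjusted p = 0.0784).

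**Figure D4:**
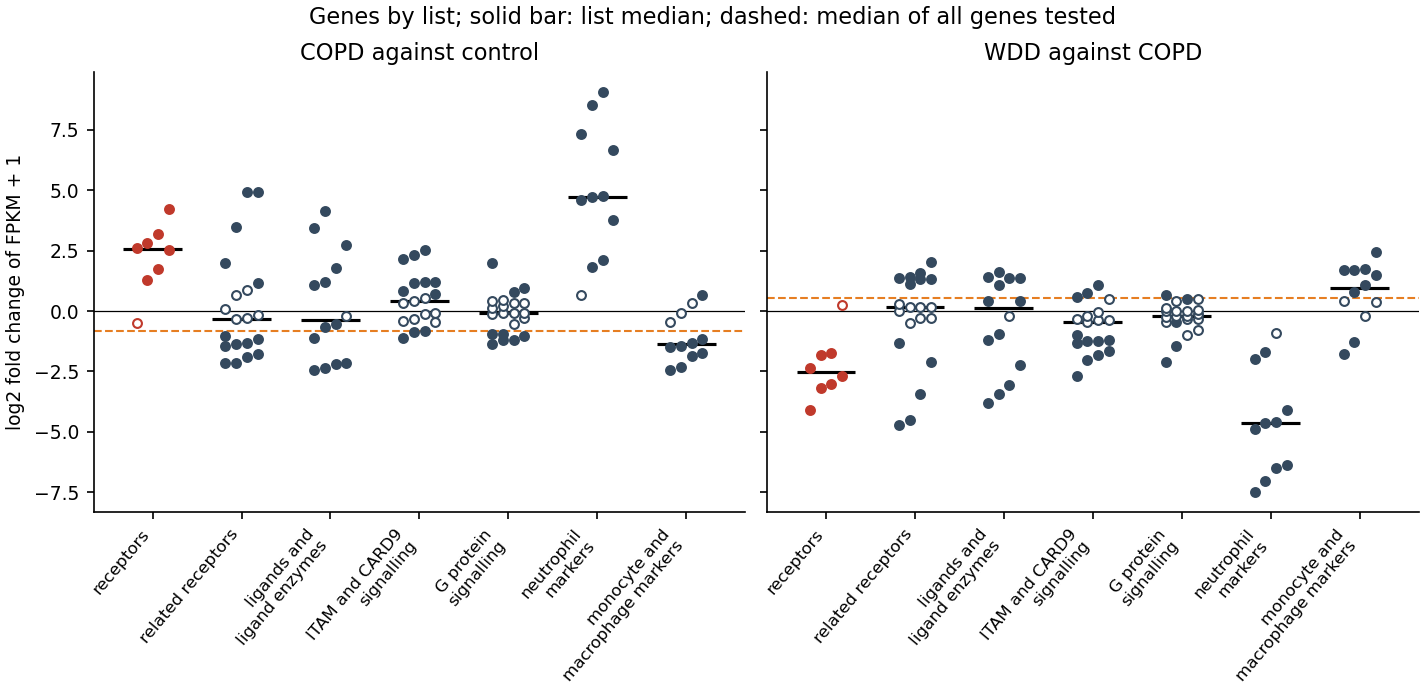
Log2 fold change of FPKM + 1 (vertical axes) of each tested gene by list, for COPD against control (left) and WDD against COPD (right), with open points where the adjusted p was 0.05 or more. The solid bars are list medians, 2.57 and -2.51 for the receptors, and the dashed lines the medians of all genes, -0.81 and 0.54.

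Markers of the cells that could carry the receptors were set beside them. The neutrophil genes Csf3r (G-CSF receptor), Cxcr2 (chemokine receptor) and Mmp8 (collagenase) rose by 4.77 (SE 0.24), 4.59 (SE 0.34) and 7.32 (SE 0.32) in COPD against control lungs (limma adjusted p = 8.16e-10, 1.26e-08 and 2.19e-10). Ltf and Mpo, of the same list, were too low to be tested, with means of 0.0230 and 0.204 FPKM in control and 0 and 0.0696 in COPD lungs. Ngp was high in COPD 5 alone (349 FPKM), against 2.19 ± 3.26 in control lungs. In WDD against control lungs 2 of the 11 neutrophil markers were higher, where 6.35% of all genes were. Of 12 monocyte and macrophage markers, 1 was higher and 8 lower in COPD than in control lungs (3 and 6 with median-of-ratios scaling), and 7 were higher and 2 lower in WDD than in COPD lungs (5 and 3). The shares lower in the first and higher in the second are near the 66.4% and 57.1% of all genes. Mrc1, a mannose receptor of alveolar macrophages, fell from 66.1 ± 15.2 to 13.7 FPKM ± 6.58 (-2.32, SE 0.31, limma adjusted p = 4.11e-06) and was at 42.5 ± 10.5 in WDD lungs. Msr1 moved the other way, with 3.46 ± 1.13 FPKM in control, 6.35 ± 2.91 in COPD and 1.01 ± 0.263 in WDD lungs. Marco, which was not tested, was listed at 0 in the control libraries. It held 3.38 ± 2.79 FPKM in COPD and 0.00933 ± 0.0209 in WDD lungs. Summed over the 13 monocyte and macrophage genes found, FPKM ranged from 320 to 453 in control and 113 to 297 in COPD lungs. The range in WDD lungs was 327 to 376. Lung structural markers were lower for 8 of 10 and lymphocyte markers for 8 of 10 in COPD against control lungs, where 66.4% of all genes were. With median-of-ratios scaling 4 of 10 and 3 of 10 were lower, against 32.3% of all genes, and 1 lymphocyte marker was higher. Of the eosinophil, mast cell and basophil markers 3 could be tested, of which 1 was lower, and of the platelet markers 2, of which 0 passed. The part of cell composition in the receptor values was not tested.

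As a second measure, each receptor was expressed relative to the mean log2(FPKM + 1) of the 13 neutrophil markers of its library, a mean of 2.40 ± 0.21 in control, 6.54 ± 0.40 in COPD and 2.68 ± 0.57 in WDD lungs. By exact permutation tests (two-sided, adjusted over 27 tests), 8 of the 9 receptors were lower relative to these markers in COPD than in control lungs, where 99.4% of all genes tested were lower at an unadjusted p under 0.05, and 7 of 9 were higher in WDD than in COPD lungs, where 99.2% of all genes were higher. Both counts are near that background and are no result about the receptors. The exception was Clec4e, which lay 0.73 ± 1.04 above the marker mean in control, 0.83 ± 0.39 in COPD and 0.60 ± 0.31 in WDD lungs and differed by 0.10 between COPD and control lungs (exact permutation p = 0.865, adjusted p = 0.934). The difference for WDD minus COPD was -0.23 (exact permutation p = 0.325, adjusted p = 0.399). Both depended on the setting: over 19 settings the latter ranged from -0.85 to -0.085, with a lowest adjusted p of 0.0238 by exact permutation. For COPD minus control the range was -0.29 to 0.94, with a lowest adjusted p of 0.157. Without S100a8 and S100a9 among the markers, Clec4e was lower in WDD than in COPD lungs. Clec7a was at the other end, 4.05 ± 0.56 above the markers in control lungs and -0.57 ± 0.29 from them in COPD lungs (exact permutation p = 0.00794, adjusted p = 0.0165). The marker mean itself rose from 2.40 to 6.54, and 99.4% of all genes were lower on this measure. That test is therefore no result about Clec7a. In WDD against control lungs 0 of the 9 passed after adjustment, where 33.9% of all genes were lower at an unadjusted p under 0.05, and Cd177 alone did at an unadjusted exact permutation p of 0.0317. Without S100a8 and S100a9, which had the largest changes of the list, 4 of 9 remained lower in COPD lungs (Fpr2, C5ar1, Cd177 and Clec7a). This count, taken after adjustment, lies below the 98.8% of all genes that were lower at an unadjusted p under 0.05. The 2 thresholds differ, and the shortfall was not tested.

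**Figure D5:**
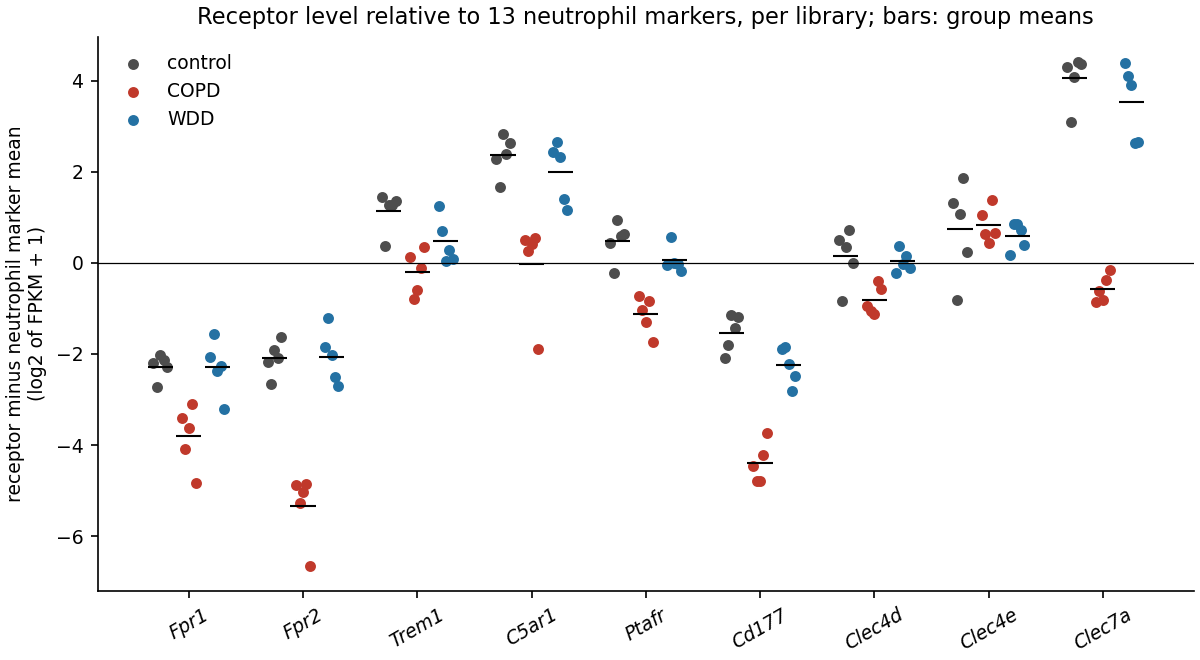
Receptor level minus the mean of 13 neutrophil markers (vertical axis, log2 of FPKM + 1) in each library, with bars at group means. The COPD points of Clec4e (mean 0.83) lie within the control range, and those of Clec7a fall from a control mean of 4.05 to -0.57.

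Genes with the closest profile were found by the mean absolute difference of log2(FPKM + 1), each gene taken from its control mean, over the 15 libraries. To the mean of the 8 tested receptors the closest were Scimp (0.17), Irak3 (0.18), Alox5ap (0.21), Fbxl5 (0.21) and Fcgr2b (0.23). Scimp stood at 20.2 ± 4.64 FPKM in control, 103 ± 25.1 in COPD and 15.2 ± 2.86 in WDD lungs. For single receptors the closest were Fcer1g to Fpr1 (0.25), Was to Fpr2 (0.17), Rab44 to Trem1 (0.27), Ncr3 to C5ar1 (0.18), Stx11 to Cd177 (0.21), Fcar to Clec4d (0.29) and Pram1 to Clec4e (0.39). For Ptafr it was AABR07044631.2 (0.24) and for Clec7a Cept1 (0.20). Pram1 went from 4.10 ± 0.662 FPKM in control to 94.0 ± 22.4 in COPD and 3.69 ± 0.996 in WDD lungs, and its distance from Clec4e was the widest of these 9 pairs.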

How the data were processed

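Lung RNA was sequenced in 15 libraries. Per the labels' protocols, 1 ug of total RNA extracted with TRIzol was made into NEBNext Ultra libraries. Per the submitters' processing notes, cutadapt, HISAT2, StringTie and build Rnor_6.0 were used; the sources used here give no versions, annotation release or strand. The deposited values are FPKM per gene as the authors computed them. Without read totals no counting error can be given.

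FPKM were used as log2(FPKM + 1). Genes at 1 FPKM or more in at least 5 libraries (13172 of 22250) were fitted by group over the 15 libraries with limma 3.58.1 (eBayes with trend, R 4.3.3), two-sided, Benjamini-Hochberg over all genes tested, called at an adjusted p under 0.05. Fold changes on this scale understate changes of low genes. The script was tested on simulated data. Single values were compared by exact permutation tests. Tables and figures used Python 3.11.15, numpy 2.4.6, pandas 2.3.3 and matplotlib 3.10.9. Alternatives were pseudocounts of 0.1 and 0.5, other filters, scalings and variance models, library weights, a replicate block and leaving out each library. The receptors, gene lists and the rule for named genes (the receptors, their partners, and list members of lowest p) were chosen with earlier results of these data known. Promoter windows are from RefSeq (GRCr8), a build other than that of the files, so they were matched by symbol. The windows of Fpr1, Ptafr and Trem1 start 7293, 8082 and 4410 bases inside the gene's RefSeq span. They were counted for motifs but not printed. Libraries sharing a replicate number were not treated as pairs, since only 1 of 15 such pairs correlated above 0.1.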

Additional observations from a re-analysis of the deposited data

Results flagged for a closer look

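Of 60 groups of 5 values checked, 6 held 1 library whose distance from the nearest other exceeded 0.71 of the group's range (Dixon's 95% limit), and chance flags about 1 in 20. In COPD 5, C5ar1 relative to the neutrophil markers was -1.88 and Fpr2 was -6.65 (log2), both below the other 4 COPD libraries. In control 2, Trem1 relative to the markers was 0.38 and Clec7a 3.08, both below the other 4 control libraries. C5ar1 was at 20.9 FPKM in WDD 5, below the other 4 WDD libraries, and Ptafr relative to the markers was 0.56 in WDD 2, above the other 4.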

How the results depend on the processing

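The 7 receptors called in COPD against control and in WDD against COPD lungs kept their direction in each alternative run. One receptor was called lower in COPD than in control lungs (Clec7a) with library weights, and 0 to 1 when a library was left out. One was called lower in WDD than in control lungs (Cd177) with library weights. With the replicate block, 7 receptors were called higher in COPD against control and 7 lower in WDD against COPD lungs, and it changed no other receptor call. The counts over all genes depended on scale. In COPD against control lungs 1084 were higher and 8749 lower, against 3977 and 4256 with median-of-ratios scaling and 3737 and 3893 with quantile normalisation. In WDD against COPD lungs 7526 were higher and 873 lower, against 3073 and 2819, 2910 and 2469, and, with the FPKM sum without mitochondrial genes, 4544 and 1511. In WDD against control lungs 836 were higher, against 2100 (median-of-ratios), 2288 (quantile), 2093 (library weights) and 1642 (only the 2 groups), and 4079 were lower, against 2224, 2408 and, at a mean of 5 FPKM or more, 2555. Relative to neutrophil markers without S100a8 and S100a9, 4 receptors were lower in COPD against control and 1 (Clec4e) was lower in WDD against COPD lungs. Leaving out a library gave 0 to 2 lower in WDD against control on this measure. The cause was not tested.

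Directions turned mostly for differences that had not passed. Clec7a turned to 0.45 (COPD against control) and -0.40 (WDD against COPD) with median-of-ratios scaling, and in the latter to -0.032 with quantile normalisation and -0.11 with the FPKM sum. In WDD against control lungs, C5ar1 turned to 0.18 and 0.088, Ptafr to 0.10 and 0.27 (median-of-ratios, quantile), Clec7a to 0.047 (median-of-ratios) and Clec4e to -0.048 (library weights). Leaving out a library there gave -0.16 to 0.40 for Clec4e (below 0 without control 2, control 5 or WDD 4) and -0.016 to 0.32 for Clec4d (below 0 without WDD 4). Pik3cg, which had passed, turned to 0.005 in COPD against control lungs with quantile normalisation. Relative to neutrophil markers, a pseudocount of 0.1 turned Fpr1, which had passed, to 0.59 (COPD against control) and -0.014 (WDD against COPD), and Clec4e to -0.022 in COPD against control lungs, where leaving out a library gave -0.29 to 0.38 (below 0 without control 2, control 5 or COPD 4). Values of Fpr1, Fpr2 and Cd177 below 1 FPKM rest on few fragments of unknown number.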
